A study of Hydra viridissima with 4 samples.

Results

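Dense clusters of open chromatin were the subject here: runs of neighbouring regions, each with an ATAC-seq peak in every one of the 4 libraries of a green hydra (Hydra viridissima) study. Peaks of the 4 lists that shared at least 1 bp were merged into union regions, shared regions were those with a peak in all 4 lists, and shared regions on one scaffold were chained wherever the gap to the next was at most 10 kb. Chains of 5 or more were kept. This gave 191 chains with 1116 members, which were 10.9% of the 10256 shared regions and 0.946% of all 117973 union regions. Members were chosen by the presence and the position of peaks in these same lists, so the number of members, the spacing and the sizes below are a description and not a finding.

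The libraries came from 2 symbiotic (green, algae-bearing) and 2 aposymbiotic (alga-free) samples, named replicates 1 and 2 of each condition. Both conditions were whole animals of clone 2, kept at 24 °C, raised on brine shrimp and last fed 2 days before collection, in sterile-filtered medium with antibiotics. Each library was made from 50 large animals without buds or gonads, dissociated together into a cell suspension, so a library is a mixture of all hydra cell types and of many animals. In such bulk samples a region open in fewer cells and a region less open in every cell cannot be told apart. The transposase Tn5 cuts DNA where it is not wrapped in nucleosomes, and peaks in the resulting tags mark open DNA.

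Open regions in animal genomes are mostly promoters, from which transcription starts, and enhancers, which bind transcription factors and act on promoters at a distance. Several such elements often lie close together around one gene or in a stretch rich in genes. Green hydra houses unicellular algae in its endodermal epithelial cells, and aposymbiotic animals are the standard comparison for the effect of the symbiont. No gene annotation or genome sequence was used here, so regions are given by scaffold and position only, counted from 1, on the assembly of the deposited lists, for which the sources used here give no name.

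The lists held 31072 and 87128 peaks in symbiotic replicates 1 and 2, and 21481 and 78594 peaks in aposymbiotic replicates 1 and 2. The genome-wide background, the lowest tag pileup that the peak caller used as background, was 6.80 and 13.5 tags in the symbiotic and 9.39 and 16.7 tags in the aposymbiotic libraries. It rises with depth, and the total number of reads is unknown. In both conditions replicate 2 had the longer list and the higher background. The peak names hold tags, and no label says what they are. If they are dates, they put the libraries of a replicate number on neighbouring days with the symbiotic one later. In that case the effects of day and of condition cannot be told apart.

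Dense chains were mostly short runs. There were 113 chains of 5 regions (59.2% of the chains), 63 of 6 or 7, and 15 of 8 or more, which together held 143 members. The largest held 19, the next 12, and 3 chains held 10. Spans ran between 4.07 and 60.0 kb with a median of 23.1 kb, and all chains together spanned 4.62 Mb, of which members filled 524 kb. The shortest chain, on scaffold 10 at 15345969 to 15350042, packed 5 regions with no other region between them, and the longest was the chain of 12 on scaffold 12 (chains picked after their values were seen).

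Members were kilobases apart rather than abutting. The 925 gaps inside dense chains had a median of 4674 bp with quartiles of 1524 and 7015 bp. The gaps of the chains of 2 to 4 shared regions, cut at the same 10 kb, had a median of 4236 bp with quartiles of 1482 and 6855 bp. Gaps of at most 200 bp numbered 60 in dense chains (6.49%) and 183 among the 3273 gaps of the shorter chains (5.59%). Within 1000 bp lay 19.8% of the gaps in dense chains and 19.8% of those in the shorter chains. When shared regions less than 500 bp apart counted as 1, 879 members were left. The count also rested on single lists: without symbiotic replicate 1 it was 3432, and without aposymbiotic replicate 1, the shortest list, it was 7911. With a library left out, here and below, regions were merged and chained again on the lists left. Members were then another set of regions.

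At the edge of the rule, the widest gaps still inside dense chains were 9971 bp on scaffold 6, 9931 bp on scaffold 10 and 9884 bp on scaffold 2. The narrowest gaps just outside were 10001 bp on scaffold 11, 10008 bp on scaffold 12 and 10009 bp on scaffold 1. Joining over the first of these would have made a chain of 8. The 565 members in chains of exactly 5 and the 936 shared regions in chains of exactly 4 were close in strength. Their median folds, the deposited ratio of summit pileup to the caller's background, were 3.49 against 3.43 in symbiotic replicate 1, 3.29 against 3.42 in symbiotic replicate 2, 2.97 against 2.89 in aposymbiotic replicate 1 and 3.03 against 2.94 in aposymbiotic replicate 2.

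Dense chains lay on 14 of the 22 scaffolds that held any shared region. Of the 14 large scaffolds, those with at least 1000 union regions, 13 carried them. Scaffold 7 led with 136 members in 22 chains, 18.1% of its 752 shared regions. It was followed in share by scaffold 5 (14.8%, 91 members), scaffold 11 (14.7%, 98 members) and scaffold 8 (14.5%, 118 members). Scaffold 1, on which peaks reached farthest, had 123 members in 20 chains, 10.4% of its 1187 shared regions.

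The share of shared regions in dense chains did not simply follow their density. Scaffold 7 and scaffold 2 had 40.7 and 46.8 shared regions per Mb up to the last peak, yet scaffold 2 had 10.3% of them in dense chains. Scaffold 5 reached its 14.8% with only 30.6 shared regions per Mb. Scaffold 6 had the lowest share among large scaffolds with members, 5.86% at 38.0 per Mb. On scaffold 14, at 17.7 per Mb, none of the 165 shared regions was in a dense chain, and none of the 67 shared regions of scaffolds 15 to 20 was.

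**Figure D1:**
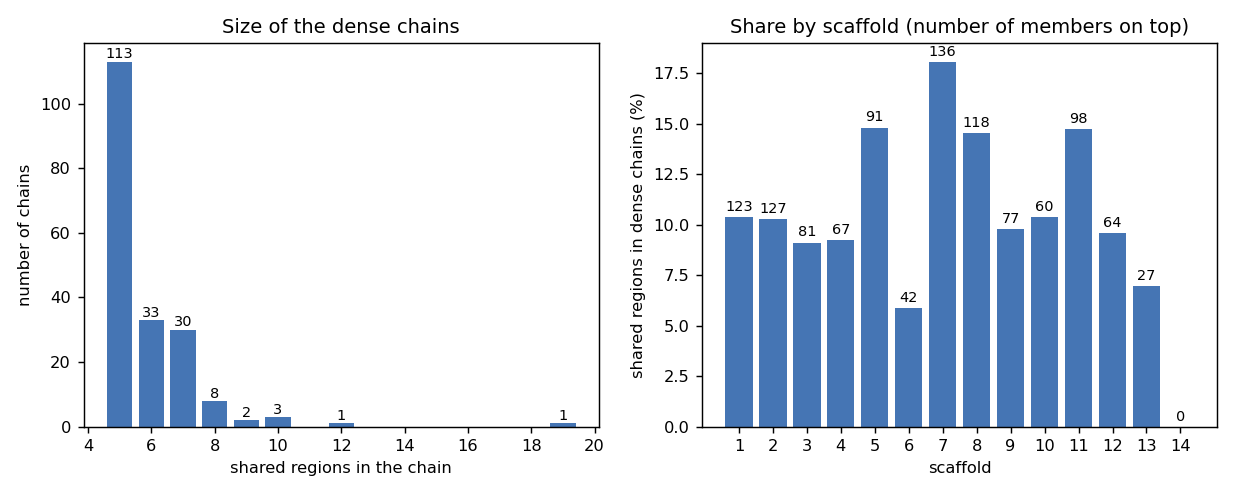
Left, number of dense chains (y) by the number of shared regions in the chain (x). Right, percent of the shared regions of each scaffold with at least 1000 union regions that lay in dense chains (y), with the number of members printed above each bar. Chains of 5 make up 113 of the 191, and the share is highest on scaffold 7 (18.1%) and 0 on scaffold 14.

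The scaffold with a dense chain and the fewest union regions was picked after its values were seen. On scaffold 86 peaks reached to position 15225, and 17 union regions covered 40.4% of that stretch. Its 5 shared regions, all in 1 chain, lay at 67 to 421, 1053 to 1518, 2723 to 2947, 4185 to 4461 and 12811 to 14356. A further 4 regions were called in 3 lists, 5 in 2 and 3 in 1. The local background, the pileup the caller estimated around each peak, was 1.09 to 2.29 times the genome-wide background over these members and libraries. It was highest at the fourth, 2.15 and 2.28 times in symbiotic replicates 1 and 2, and 2.25 and 2.29 times in aposymbiotic replicates 1 and 2. The 4 libraries were close to each other there.

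Strength was compared with the 9140 shared regions outside dense chains. Both sets were called in every list, and the rule did not use the height of a peak beyond the call. The summit pileup, the number of tags over the highest point, had a median of 30 tags in members and 30 in the other shared regions in symbiotic replicate 1, and 57.5 against 58 in symbiotic replicate 2. In aposymbiotic replicate 1 it was 35 against 34 tags, and in aposymbiotic replicate 2 it was 64 against 61. For a single region, the exact Poisson 95% interval of 30 tags is 20.2 to 42.8. On the log2(pileup + 1) scale the median of members minus that of the others averaged 0.024 ± 0.037 (SD, n = 4 libraries; two-sided exact sign-flip p = 0.5), with 2 libraries above 0; without symbiotic replicate 2 it was 0.080. Under 5 other settings it was above 0 in all 4 libraries: 0.20 at a gap limit of 5 kb, 0.056 at 20 kb, 0.12 in chains of at least 8, 0.078 in summit windows and 0.050 within scaffolds (exact sign-flip p = 0.13 each). With 4 libraries this test cannot give a p below 0.13.

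Local background was higher around members in every library. Its median was 1.14 and 1.18 times the genome-wide background for members in symbiotic replicates 1 and 2, against 1.08 and 1.13 times for the other shared regions. For members in aposymbiotic replicates 1 and 2 it was 1.14 and 1.19 times, against 1.09 and 1.14 times. The difference, on the log2(background + 1) scale, averaged 0.063 ± 0.0051 (SD, n = 4; exact sign-flip p = 0.13, the smallest possible), above 0 in 4 of 4 libraries. In the set rebuilt without symbiotic replicate 1 it was 0.033. The sign turned in stricter lists, where the rule picks other chains: the difference was -0.20 at a -log10 q of at least 5 (61 members) and -0.036 with lists of equal length (179 members). The caller estimates this background from tags around the peak, in which neighbouring peaks can count, and their part in it was not tested.

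Over 4 classes of chain size, the median background was higher in each larger class in all 4 lists. In symbiotic replicate 1 its median was 1.05 times the genome-wide value for shared regions with no shared neighbour within 10 kb, 1.10 for chains of 2 to 4, 1.14 for chains of 5 to 7 and 1.16 for chains of 8 or more. In symbiotic replicate 2 the same series was 1.09, 1.15, 1.18 and 1.23. It was 1.06, 1.11, 1.14 and 1.20 in aposymbiotic replicate 1, and 1.10, 1.16, 1.18 and 1.24 in aposymbiotic replicate 2. Within a class the order did not hold: chains of exactly 5 had a higher median than chains of 5 to 7 in 3 lists, with 1.19 in symbiotic replicate 2 and 1.15 and 1.19 in the aposymbiotic lists. These are medians over regions that share a library, given without a test. Classes were sorted by neighbouring shared peaks, which can count in the caller's background. The sorting can therefore bear on this order, and its part was not tested.

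Within a chain the middle also differed from the ends. For the 734 inner members the median local background was 1.16 and 1.19 times the genome-wide one in symbiotic replicates 1 and 2, against 1.12 and 1.16 times for the 382 first and last members. In aposymbiotic replicates 1 and 2 it was 1.15 and 1.20 times for inner members, against 1.12 and 1.17 times for the first and last. Summit pileup was 31 and 58 tags for inner members against 29 and 56 tags for the ends in symbiotic replicates 1 and 2, and 36 and 65 against 35 and 63 tags in aposymbiotic replicates 1 and 2. Inner members were thus higher than ends in both measures in each library, given without a test. The rule leaves first and last members without a shared region within 10 kb on their outer side. Neighbouring peaks can count in the caller's background, so the rule can bear on this difference, and its part was not tested.

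Fold enrichment, which divides the pileup by that background, was about the same in members as elsewhere. The median fold was 3.46 against 3.49 in symbiotic replicate 1 and 3.36 against 3.50 in symbiotic replicate 2. It was 2.97 against 2.98 in aposymbiotic replicate 1 and 3.02 against 3.01 in aposymbiotic replicate 2. The log2 difference averaged -0.020 ± 0.028 (SD, n = 4, exact sign-flip p = 0.25). In the sets of members rebuilt with a library left out, it was 0.014 without symbiotic replicate 2. Leaving out each of the other libraries gave -0.019 to -0.0024. Some other settings gave 1 sign in all 4 libraries, but not the same sign. It was -0.027 in chains of at least 4, -0.046 with lists of equal length and 0.034 at a gap limit of 5 kb (exact sign-flip p = 0.13 each). Under the 10 kb rule with chains of 5 or more, a difference between the sets was not detectable in these libraries.

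A difference in width was not detectable under that rule either. The summed length of the peaks in a region had a median of 190 bp in members and 193 bp in the other shared regions in symbiotic replicate 1, and 308 against 310 bp in symbiotic replicate 2. It was 205.5 against 205 bp in aposymbiotic replicate 1 and 306 against 306 bp in aposymbiotic replicate 2. The log2 difference was -0.0071 ± 0.012 (SD, n = 4, exact sign-flip p = 0.5). In the sets of members rebuilt with any 1 of the 4 libraries left out it was 0.0029 to 0.024. At a gap limit of 5 kb it was 0.12, above 0 in all 4 libraries (exact sign-flip p = 0.13). More than 1 summit was found in 33.0% and 58.2% of members in symbiotic replicates 1 and 2, against 31.1% and 57.9% of the others. In aposymbiotic replicates 1 and 2 these shares were 29.9% and 62.5% of members, against 27.9% and 60.8% of the others.

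**Figure D2:**
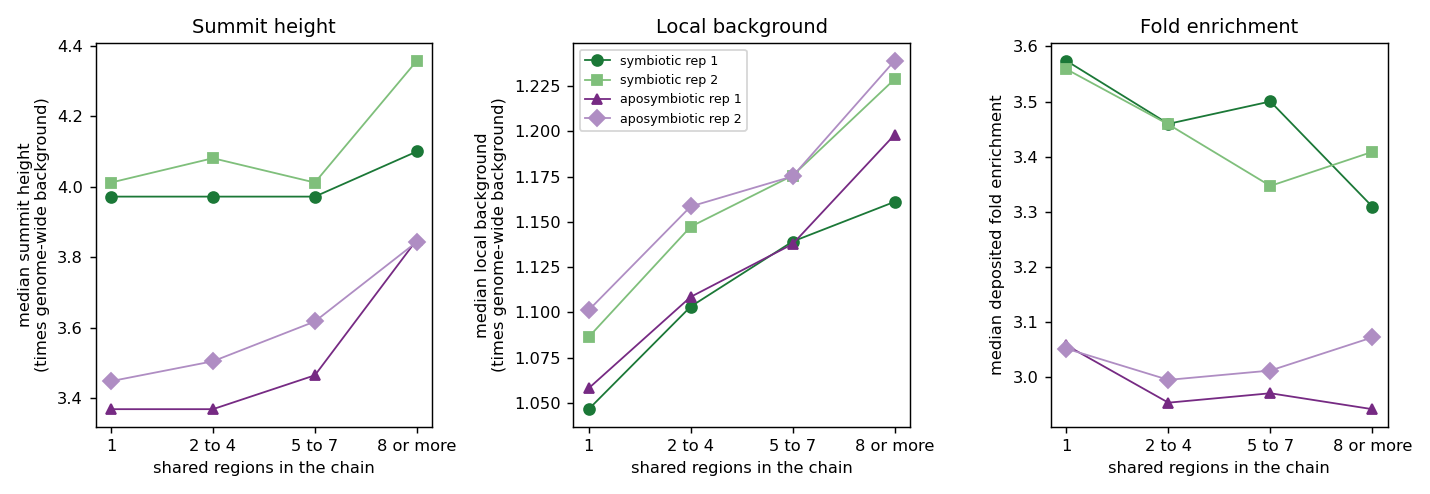
Medians over shared regions by the number of shared regions in their chain (x, from 1 to 8 or more), with 1 line per library. The y axes, which do not start at 0, show summit height as pileup + 1 over genome-wide background + 1, local background over genome-wide background, and the deposited fold. Over these 4 classes the local background is higher in each larger class in all 4 libraries (1.05 to 1.16 times in symbiotic replicate 1), while the fold is not. Neighbouring peaks, by which the classes are sorted, can count in the local background.

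Members took a small part of each list. They held 1250 peaks in symbiotic replicate 1 (4.02% of the list) and 1238 in symbiotic replicate 2 (1.42%), and 1201 in aposymbiotic replicate 1 (5.59%) and 1299 in aposymbiotic replicate 2 (1.65%). In covered length these were 5.12% and 2.26% of the symbiotic and 6.65% and 2.71% of the aposymbiotic lists. The percentages follow the length of the lists, since nearly the same regions were counted in each.

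Members with a high local background lay in a part of the chains. It exceeded 1.5 times the genome-wide background in all 4 lists at 114 members (10.2%), which lay in 51 dense chains, and at 349 of the other shared regions (3.82%). It exceeded 2 times in all 4 lists at 7 members in 5 chains (0.627%) and at 12 of the others (0.131%). At the other extreme, 236 members (21.1%) and 2514 of the other shared regions (27.5%) stood at the genome-wide background in all 4 lists.

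Fold and height parted at one member, picked after its values were seen because its lowest local background over the 4 lists was the highest of all. It lay on scaffold 2 at 12003143 to 12004806, in a chain of 6 between 11994160 and 12012121. The local background there was 3.04 and 3.04 times the genome-wide one in symbiotic replicates 1 and 2, and 3.04 and 3.08 times in aposymbiotic replicates 1 and 2. Its summits had 56 and 148 tags in the symbiotic and 65 and 140 tags in the aposymbiotic libraries, which is 7.30, 10.3, 6.35 and 7.97 times the genome-wide background in the same order (pileup + 1 over background + 1). The deposited folds were 2.63 and 3.55 in symbiotic, and 2.23 and 2.69 in aposymbiotic replicates 1 and 2. By fold it ranked at percentile 29.6 and 90.2 of the symbiotic and 13.7 and 80.9 of the aposymbiotic lists, low in replicate 1 and high in replicate 2 of both conditions.

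A neighbour at 12006547 to 12006866 had 52 and 108 tags in symbiotic replicates 1 and 2, and 55 and 127 tags in aposymbiotic replicates 1 and 2. This neighbour ranked by fold at percentile 8.07 and 0.0186 of the lists of symbiotic and aposymbiotic replicate 1, near the bottom, but at percentile 52.5 and 75.4 of those of symbiotic and aposymbiotic replicate 2. The first member of the chain, at 11994160 to 11994798, lay 7887 bp before the next and had a background of 1.00 to 1.04 times the genome-wide one. With 44 and 79 tags in the symbiotic and 82 and 123 tags in the aposymbiotic libraries, its folds were 5.68 and 5.43, and 7.99 and 6.74. In both symbiotic libraries and in aposymbiotic replicate 2 the first member thus had fewer tags and a higher fold than this neighbour. In aposymbiotic replicate 1 it had more tags and a higher fold.

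The largest chain held 19 shared regions on scaffold 7, at 15672492 to 15715046. It spanned 42.6 kb, of which members filled 21.5%, with a median gap of 1395.5 bp and none above 4251 bp. Very close pairs were part of it: 15677202 to 15677682 and 15677801 to 15678663 were 118 bp apart, and 15682765 to 15682990 and 15683092 to 15683501 were 101 bp apart. A further 15 union regions lay between the members, 8 of them called in 1 list, and none was found in 1 condition only.

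Its members fell into stretches of high and of plain background. At 10 members the local background exceeded 1.5 times the genome-wide one in all 4 lists, reaching 2.13 and 2.24 times in symbiotic and 2.27 and 2.33 times in aposymbiotic replicates 1 and 2. These were the first 4 members and 6 consecutive ones, from the eighth, at 15690822, to the thirteenth, which ended at 15698069. At the other 9 it stayed at or below 1.31 times. The 10 had folds of 2.36 to 4.01 and 2.55 to 3.99 in symbiotic, and 1.93 to 3.63 and 1.84 to 3.71 in aposymbiotic replicates 1 and 2. The other 9 reached 7.05 and 6.85, and 6.06 and 6.50, although their highest pileups (54 and 98, and 62 and 114 tags) did not exceed those of the 10 (54 and 106, and 64 and 123 tags).

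The strongest member of this chain by lowest percentile was at 15710510 to 15711067. Its summits had 47 and 96 tags in symbiotic replicates 1 and 2, and 62 and 114 tags in aposymbiotic replicates 1 and 2, with folds of 6.15 and 6.71, and 6.06 and 6.50. The member before it, at 15708962 to 15709241, had folds of 7.05 and 6.85 in the symbiotic and 4.23 and 5.14 in the aposymbiotic libraries, on 54 and 98, and 43 and 90 tags. The groups overlapped in percentile of fold within the list. By that percentile, 1 of the 19 members ranked higher in both symbiotic libraries than in either aposymbiotic one, and 1 ranked the other way.

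**Figure D3:**
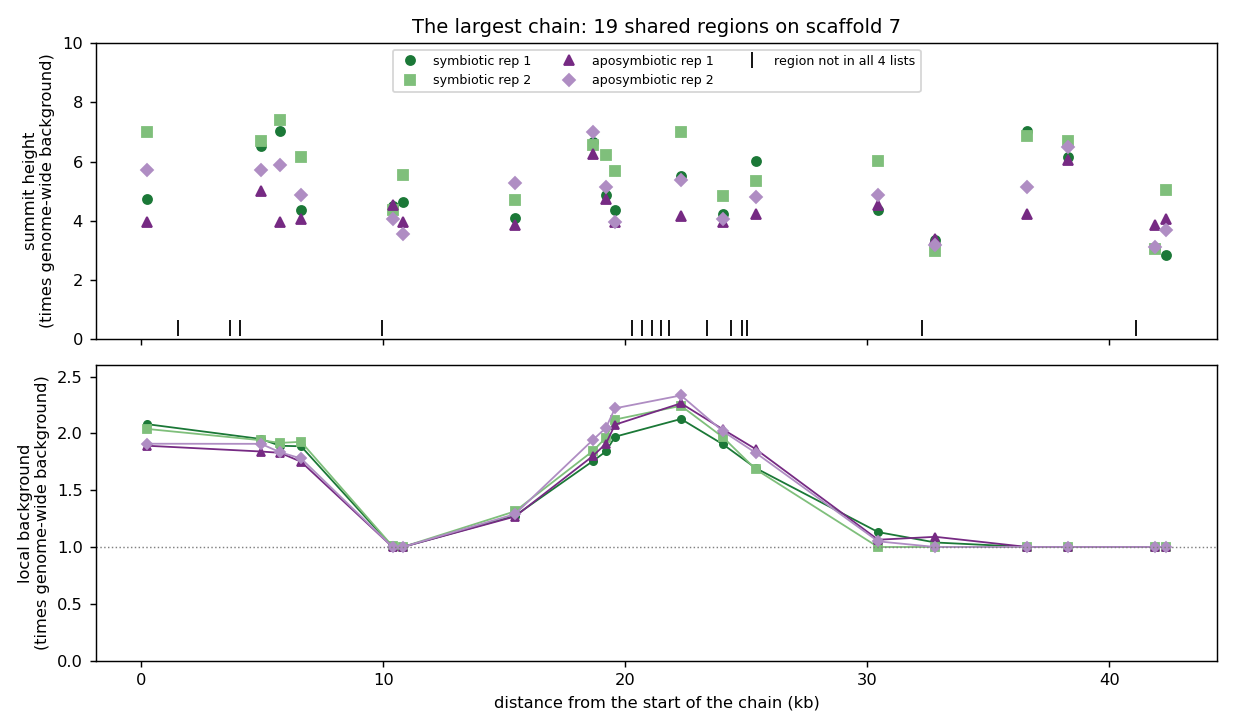
The chain of 19 shared regions on scaffold 7, by distance from its start in kb (x). Above, the summit height of each member in each library, as pileup + 1 over genome-wide background + 1, with black ticks for the 15 regions not in all 4 lists; below, the local background over the genome-wide one. The 4 libraries trace the same background profile, with 2 stretches near 2 times and the rest near 1.

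The chain of 12, on scaffold 12 at 5870863 to 5930897, was sparser: it spanned 60.0 kb with a median gap of 5107 bp, and members filled 9.86% of it. A further 31 regions lay between its members, 18 of them called in 1 list, and 1 was found in the symbiotic libraries only. Its strongest member, at 5878778 to 5878965, had 58 and 112 tags and folds of 5.76 and 5.05 in the symbiotic libraries. Its 71 and 142 tags in the aposymbiotic libraries gave folds of 5.29 and 5.32. Median folds over the 12 were 3.28 and 4.07 in symbiotic, and 3.08 and 3.12 in aposymbiotic replicates 1 and 2.

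The 3 chains of 10 lay on scaffold 12 at 4889788 to 4928173, on scaffold 5 at 15470169 to 15509883 and on scaffold 4 at 3605825 to 3654211. They spanned 38.4, 39.7 and 48.4 kb and held 17, 18 and 23 further regions. Their strongest members differed in height. On scaffold 4, at 3611841 to 3612422, there were 98 and 132 tags in symbiotic replicates 1 and 2 (folds 9.27 and 6.44), and 62 and 133 tags in aposymbiotic replicates 1 and 2 (folds 4.67 and 5.50). On scaffold 5, at 15504324 to 15505272, there were 25 and 66 tags in the symbiotic (folds 3.10 and 3.99) and 36 and 65 tags in the aposymbiotic libraries (folds 3.32 and 3.25). In the scaffold 5 chain no fold exceeded 4.63 in any list. Its highest summits had 34 and 66 tags in symbiotic and 36 and 66 tags in aposymbiotic replicates 1 and 2. The 4.63 was in symbiotic replicate 2, where a member with a fold of 4.65 ranked at percentile 97.2 of the list.

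The strongest single members, by their lowest percentile of fold over the 4 lists, were not in the largest chains. The first, on scaffold 5 at 9124239 to 9124694 in a chain of 6, had 200 and 224 tags in symbiotic replicates 1 and 2, and 139 and 276 tags in aposymbiotic replicates 1 and 2. The folds were 20.2 and 15.5, and 12.03 and 15.7, and the conditions overlapped in percentile of fold. Its chain was uneven: the 5 other members had at most 48 and 82 tags in the symbiotic and 61 and 108 tags in the aposymbiotic libraries.

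The second strongest, on scaffold 12 at 9460271 to 9460713 in a chain of 7, had folds of 15.8 and 17.7 in symbiotic, and 14.5 and 12.5 in aposymbiotic replicates 1 and 2. The others were 2994072 to 2994511 of scaffold 11, 8096864 to 8097260 of scaffold 4, and 10433752 to 10434129 of scaffold 8. Over all 5 the folds ran between 9.10 and 20.2. These 5 lay in chains of 5 to 7 regions, as did 973 of all 1116 members. Over all members the highest fold was 20.2 and 17.7 in symbiotic and 14.5 and 15.7 in aposymbiotic libraries, against 29.7 and 22.97, and 23.9 and 21.8 in the far more numerous other shared regions.

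Between the members lay many further peaks that were not shared by all 4 lists. The rule sorted regions into shared and not shared, and these peaks are what it left over. Their number was not used to choose members, but the measure is not independent of the rule. The gaps of dense chains, 4.09 Mb in all, held 2030 such union regions (495.9 per Mb), and the gaps of chains of 2 to 4, 14.2 Mb, held 7316 (515.7 per Mb). Of these regions 56.5% were called in 1 list in dense chains and 56.0% in the shorter chains. No further region was found in 271 of the 925 gaps of dense chains (29.3%), against 28.1% of the gaps of shorter chains, and the fullest gap of a dense chain held 11.

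By library, these further peaks numbered 91.4 and 346.9 per Mb of gap in dense chains in symbiotic replicates 1 and 2, against 90.9 and 351.4 per Mb in the shorter chains. For aposymbiotic replicates 1 and 2 they numbered 48.9 and 315.4 per Mb in dense chains, against 51.5 and 334.5 per Mb. Under the 10 kb rule, the ratio of dense to shorter chains was 1.005 and 0.987 in symbiotic, and 0.948 and 0.943 in aposymbiotic replicates 1 and 2. On the log2 scale it averaged -0.043 ± 0.045 (SD, n = 4; exact sign-flip p = 0.25), and 0.0042 without aposymbiotic replicate 2. It depended on the rule. At a gap limit of 5 kb it was -0.38, and with lists of equal length it was 0.32. Against all other gaps between consecutive shared regions of a scaffold, of any length, it was 0.41. Each of these had 1 sign in all 4 libraries (exact sign-flip p = 0.13 each). The log2 ratio was -0.0059 ± 0.018 in symbiotic and -0.081 ± 0.0059 in aposymbiotic libraries (SD, n = 2 each). That difference of 0.075 had an exact permutation p of 0.33, the smallest that 2 against 2 can give; it was 0.020 to 0.049 with any 1 library left out, the lowest without symbiotic replicate 2. It turned to -0.34 in lists of equal length.

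**Figure D4:**
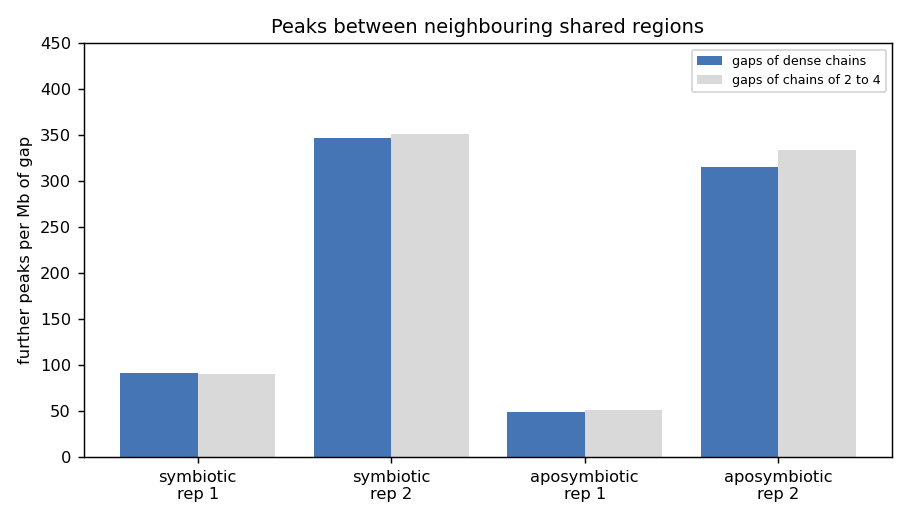
Peaks not shared by all 4 lists per Mb of gap between neighbouring shared regions (y, from 0), in dense chains and in chains of 2 to 4, for each library (x). The paired bars are nearly level in each library, at ratios between 0.943 and 1.005, while the libraries differ widely from one another.

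Some of these further regions had a peak in both libraries of 1 condition and no peak in the other condition. The gaps of dense chains held 68 symbiotic-only and 22 aposymbiotic-only regions, or 16.6 and 5.37 per Mb. In the gaps of chains of 2 to 4 there were 228 and 114, or 16.1 and 8.04 per Mb. The symbiotic share was 75.6% in dense chains (exact binomial 95% interval 65.4% to 84.0%), 66.7% in the shorter chains (61.4% to 71.6%) and 75.4% over all 3700 and 1204 such regions. These intervals cover counting error only, and the intervals of dense and shorter chains overlapped. With a library left out, chains were rebuilt on the lists left, and its condition needed a peak in 1 list only. Counted so, dense chains without symbiotic replicate 1 held 1955 and 106 regions, and those without symbiotic replicate 2 held 136 and 122. Leaving out aposymbiotic replicate 2 gave 301 and 77, and leaving out aposymbiotic replicate 1 turned the balance to 603 and 3845. These counts rest on a looser rule than the 68 and 22, and the cause of their spread was not tested.

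Regions of 1 condition were scattered over the chains. Of the 191 chains, 52 held at least 1 symbiotic-only region, 22 held 1 aposymbiotic-only region, 4 held both kinds and 121 held neither. The highest number in a chain was 4, all symbiotic-only, on scaffold 8 at 1299987 to 1320574, a chain of 5 picked after its values were seen. They lay at 1303685 to 1303862, 1311827 to 1312065, 1317489 to 1317711 and 1317950 to 1318151. Their folds were 2.25 to 3.10 in symbiotic replicate 1 on 20 to 31 tags and 2.43 to 2.87 in symbiotic replicate 2 on 44 to 50 tags, so all 4 were modest peaks. None of the 5 members of that chain ranked apart between the conditions.

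The strongest regions of 1 condition inside dense chains, by the lower of their 2 folds, were likewise modest, and were chosen after their values were seen. A symbiotic-only region on scaffold 10 at 17178003 to 17178243 had folds of 3.46 and 3.67 in symbiotic replicates 1 and 2, on 26 and 52 tags. An aposymbiotic-only region on scaffold 6 at 1884227 to 1884405 had folds of 3.29 and 3.35 in aposymbiotic replicates 1 and 2, on 51 and 91 tags. A list holds no value where no peak was called, so the other condition has none to set beside them.

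The members themselves were compared between conditions by the median log2 fold of members minus that of the other shared regions in the same list, which cancels list-wide differences. This was -0.012 and -0.060 in symbiotic replicates 1 and 2, and -0.0075 and 0.00081 in aposymbiotic replicates 1 and 2. The means were -0.036 ± 0.035 in symbiotic and -0.0034 ± 0.0059 in aposymbiotic libraries (SD, n = 2 each), a difference of -0.033 (two-sided exact permutation p = 0.33, the smallest possible). With a library left out, chains were rebuilt on the lists left, so other members were compared. In these rebuilt sets the difference was 0.0035 without symbiotic replicate 1 (3432 members) and 0.00082 without symbiotic replicate 2 (1130 members). Leaving out aposymbiotic replicate 1 gave -0.0040, and leaving out aposymbiotic replicate 2 gave -0.019. All of these are changes of a few percent at most.

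Single members were then ranked by the percentile of their fold within each list. A member ranked higher in 1 condition when its lowest percentile there exceeded its highest in the other. The symbiotic libraries ranked higher at 152 members (13.6%), where 14.0% of all shared regions did so. The aposymbiotic libraries ranked higher at 91 members (8.15%), where 8.80% of all shared regions did so. At 873 members (78.2%) the conditions overlapped. Members thus followed the background of shared regions in both directions, and the counts are no result about them.

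Percentiles in lists of unlike length are not on one scale. Ranked only among the 10256 shared regions, the same set in every list, the symbiotic libraries were higher at 19.2% of members, against 19.6% of all shared regions. The aposymbiotic libraries were higher at 18.4%, against 19.7%. Ranked among shared regions by summit pileup, the shares were 19.6% of members for symbiotic higher, against 20.4% of all shared regions, and 21.1% for aposymbiotic higher, against 20.4%. Counts of members were 214 symbiotic higher and 205 aposymbiotic higher by fold, and 219 and 235 by pileup, on these scales, which were added after seeing the data. By percentile in the whole list with 1 library left out, the symbiotic share ran between 19.03% and 56.1%. The aposymbiotic share ran between 11.01% and 38.5%. Each was close to the share over all shared regions under the same setting. The condition of the library left out then had only 1 value per region, so these shares cannot be set beside those above.

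Per pair, the log2 ratio of folds, symbiotic over aposymbiotic and centred on all shared regions, had a median over members of 0.0041 in pair 1 and 0.0047 in pair 2. It spread widely around that: the 5th and 95th percentiles were -0.53 and 0.56 in pair 1 and -0.62 and 0.53 in pair 2. The ratio was above 0 in both pairs at 329 members (29.5%) and below 0 in both at 308 (27.6%), against 28.04% and 28.3% of the other shared regions. Across members the 2 pairs correlated weakly (Pearson's r 0.16 and Spearman's rho 0.16 over 1116 regions of the same 4 libraries; 0.20 and 0.19 over the 9140 others), a description across regions, which are not independent replicates.

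**Figure D5:**
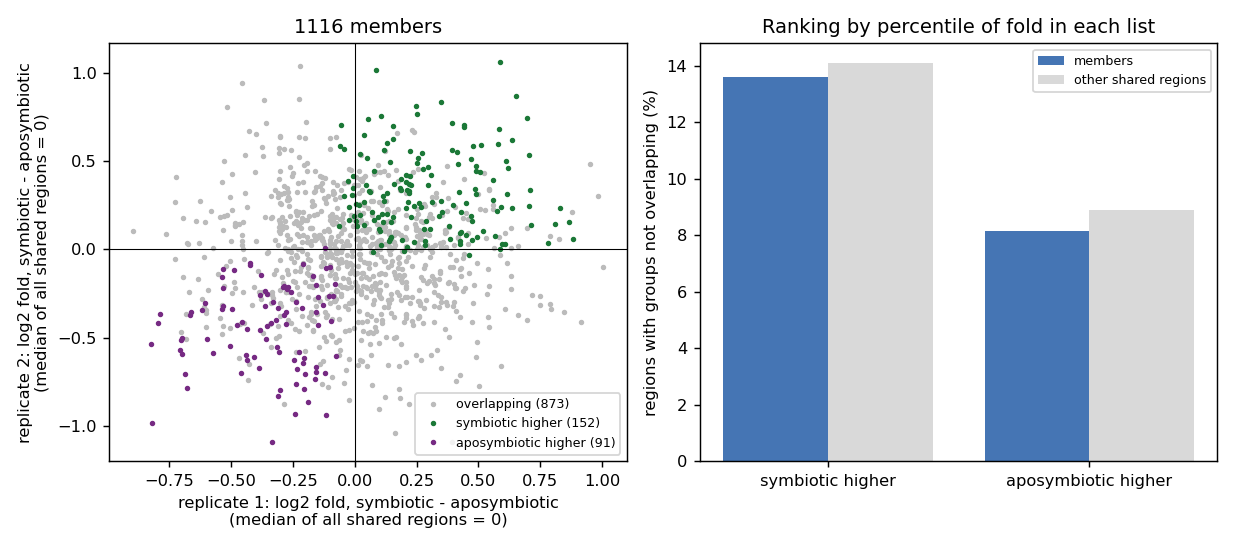
Left, log2 fold of each of the 1116 members in symbiotic minus aposymbiotic libraries, for replicate 1 (x) and replicate 2 (y), each centred on the median of all shared regions; colours mark members whose percentiles did not overlap between conditions. Right, percent of members and of other shared regions in each such class (y, from 0). Members and other shared regions have nearly the same bars, 13.6% and 14.1% for symbiotic higher.

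No chain had more than 3 members that ranked higher in 1 condition. In 77 chains no member ranked higher in the symbiotic libraries, in 79 chains 1 did, in 32 chains 2 did and in 3 chains 3 did. For the aposymbiotic libraries these numbers were 112, 69, 8 and 2 chains, and 42 chains held members of both directions. By this percentile of the whole list, 14.0% of all shared regions ranked higher in the symbiotic and 8.80% in the aposymbiotic libraries. The numbers of chains were not set against shorter chains and are no result about the members. The median ratio of a chain was above 0 in both pairs in 61 of 191 chains (31.9%) and below 0 in both in 61 (31.9%), against 25.6% and 28.6% of the 2234 chains of 2 to 4, whose medians rest on fewer regions. Chains with 3 members ranking higher in the symbiotic libraries included those on scaffold 12 at 1679954 to 1700868 and on scaffold 13 at 1446395 to 1463562. Those with 3 ranking higher in the aposymbiotic libraries were on scaffold 7 at 11027972 to 11044618 and on scaffold 3 at 7567707 to 7615350. Each of these except the one on scaffold 12 also held at least 1 member of the opposite direction.

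The members that ranked higher with algae by the widest margin in both pairs had plain folds. On scaffold 2 at 3799723 to 3800450, symbiotic replicates 1 and 2 had folds of 3.34 and 3.12 on 32 and 62 tags, and aposymbiotic replicates 1 and 2 had 2.20 and 1.85 on 28 and 46 tags. On scaffold 5 at 15501118 to 15501284, within one of the chains of 10, the folds were 4.25 and 3.39 in the symbiotic (34 and 53 tags) and 2.37 and 1.93 in the aposymbiotic libraries (25 and 38 tags). At 4804221 to 4804771 of scaffold 5, folds were 4.23 and 4.65 in the symbiotic (48 and 108 tags) and 2.44 and 1.96 in the aposymbiotic libraries (39 and 56 tags).

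The 2 others were on scaffold 9 at 3860681 to 3861319 and on scaffold 2 at 22459681 to 22459862. Over the 5 members the symbiotic folds were 3.07 to 4.65 and the aposymbiotic folds 1.85 to 2.44. These values chose the members, so they are given without a test.

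The members that ranked higher without algae were of the same kind. At 20405513 to 20405875 of scaffold 3, folds were 2.37 and 1.90 in symbiotic replicates 1 and 2 (28 and 43 tags), and 3.10 and 2.37 in aposymbiotic replicates 1 and 2 (50 and 71 tags). On scaffold 5 at 9125215 to 9125411 they were 2.30 and 2.08 in the symbiotic (20 and 29 tags) and 3.46 and 2.43 in the aposymbiotic libraries (35 and 42 tags). This small region was the last of its chain and followed the strongest member of all after a gap of 520 bp. The conditions overlapped in percentile at the large peak but not at the small one beside it.

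The others included 7362813 to 7363120 on scaffold 11 and 2720962 to 2721105 on scaffold 8, and a region of scaffold 1 at 12692611 to 12692806. At this last one the folds were 2.69 and 2.49 in the symbiotic (20 and 35 tags) and 3.46 and 3.28 in the aposymbiotic libraries (35 and 57 tags), all at the genome-wide background. Over the 5 members the symbiotic folds were 1.89 to 2.83 and the aposymbiotic folds 2.37 to 3.95.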

How the data were processed

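ATAC-seq peak lists of 2 symbiotic and 2 aposymbiotic libraries were used; groups and replicate numbers come from the sample titles, and the descriptions call the replicates biological. The submitters' processing notes name MACS3 3.0.4, Bowtie2 2.5.4, Trim Galore 0.6.10 and deepTools; for settings, assembly and filters the sources used here give nothing. The authors deposited 1 peak list per library. For each summit the deposited lists give a ratio (the fold, pileup + 1 over background + 1), a p-value and a q-value, each as -log10, and a score that is 10 times the last. In every list q-values ended at 0.01. Summits listed under one start and end were taken as 1 peak, valued by the strongest.

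Summit pileup and local background were solved here from the fold and the p-value (Poisson tail, returned within 0.001) for at least 99.997% of the peaks of each list. Of the shared regions outside dense chains, 3 in symbiotic replicate 2 and 1 in aposymbiotic replicate 2 had no solution and are not in the medians of pileup and background. The genome-wide background is the lowest solved one. Tags may be fragments or extended reads. Folds of the libraries are given side by side but are not on one scale, so conditions were compared by percentiles or differences within lists; regions are not replicates, so tests were exact sign-flip or label permutation tests over libraries. The p-values count sign or label patterns among these 4 libraries, and the SDs give the spread between libraries.

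The members and lists were chosen with earlier results of these data known. Regions named follow a fixed rule: the 5 chains with the most members, the 5 members with the highest lowest percentile of fold, and the 5 per condition with the largest smallest percentile difference over both pairs; others are marked as picked after their values were seen. Alternatives were other gap limits and chain sizes, a stricter q, lists of equal length (21481 peaks), summit windows of 200 bp, other comparison sets and leaving out each library. Python 3.11.15, numpy 2.4.6, pandas 2.3.3, scipy 1.17.1 and matplotlib 3.10.9 were used, and the procedures were tested on simulated data.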

Additional observations from a re-analysis of the deposited data

How the results depend on the processing

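The numbers of members and most differences from other shared regions depended on the rule. Members numbered 125 at a gap limit of 5 kb, 4377 at 20 kb, 2052 in chains of at least 4, 143 in chains of at least 8, 61 where -log10 q had to reach 5 and 179 with lists of equal length, and 1130 to 7911 with a library left out. All differences here are log2. The fold difference was -0.027 (at least 4) and -0.046 (equal length). It turned to 0.034 (5 kb), 0.00085 (20 kb) and 0.012 (q), and ran from -0.019 to 0.014 with a library left out. Pileup turned to -0.025 (q), and was 0.20 (5 kb), 0.12 (at least 8), 0.078 (summit windows), 0.056 (20 kb) and 0.050 (within scaffolds); local background turned to -0.20 (q) and -0.036 (equal length). Width turned to 0.12 (5 kb), 0.0062 (20 kb), 0.0084 (at least 4), 0.045 (at least 8) and 0.056 (q), and was 0.0029 to 0.024 with a library left out. Density in gaps was -0.38 at 5 kb, and ran from -0.074 to 0.0042 with a library left out. It turned to 0.026 (20 kb), 0.13 (at least 8), 0.41 (q), 0.32 (equal length), 0.015 (summit windows) and 0.41 (all other gaps between consecutive shared regions as the comparison). Its difference between symbiotic and aposymbiotic libraries turned to -0.023 (20 kb), -0.095 (at least 8), -0.91 (q) and -0.34 (equal length), and the fold difference between them ran from -0.019 to 0.0035 with a library left out. The symbiotic share of regions of 1 condition was 100% (5 kb, 2 regions), 62.5% (at least 8, 8 regions), 100% (q, 1 region) and 27.3% (equal length, 11 regions), and 13.6% to 94.9% with a library left out. Members ranking higher in symbiotic libraries made up 8.8% (5 kb), 8.39% (at least 8), 8.20% (q), 18.99% (equal length), 19.2% (fold among shared regions) and 19.6% (pileup among shared regions), and 19.03% to 56.1% with a library left out. In aposymbiotic libraries they were 6.4% (5 kb), 1.64% (q), 20.1% (equal length), 18.4% and 21.1% (among shared regions), and 11.01% to 38.5% with a library left out. With a library left out, regions were merged and chained again on the lists left, and its condition needed a peak, or a percentile apart, in 1 list only. The cause of these changes was not tested, beyond the smaller sets that stricter rules leave. Rankings among shared regions, medians within scaffolds, pileup in place of fold between conditions and counting near regions as 1 were added after seeing the data. Width in summit windows was not run, since windows fix it.

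With the replicate number as a block, the differences between symbiotic and aposymbiotic libraries were -0.033 for fold and 0.075 for density, each with an exact sign-flip p of 0.5, the smallest that 2 pairs can give. Deviations of same-numbered libraries correlated at 0.11 over shared regions, and no label says that a number marks a shared day. Depth limits single regions: a median summit of 30 tags has an exact Poisson 95% interval of 20.2 to 42.8 tags.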
